A study of Mus musculus with 24 samples.

Results

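The 5 genes described here, Pla2g2d, Ecm1, Cd209b, Stk39 and Cpeb1, were chosen by name from the 43430 genes of the deposited counts table because they were strongly higher in old than in young macrophages. All 5 passed the filter on low counts, as did 13467 genes in all. The data were 24 RNA-seq libraries of lung macrophages sorted from C57BL/6J mice, 4 in each of 6 groups. Per the labels, young mice were 8 to 12 weeks old and old mice more than 18 months. Naive mice gave 2 groups, 1 of each age, both sorted as Siglec F-high, and mice given asbestos and sampled at day 28 gave 4, a Siglec F-high and a Siglec F-low sort of each age. Siglec F is a surface lectin of alveolar macrophages. No transgene or drug was named for any of the 24 libraries, and no naive Siglec F-low group was analysed here, so asbestos and naive mice could be compared only in the Siglec F-high sort. The labels did not say whether the 4 libraries of a group came from separate animals or whether both sorts came from the same ones, so p-values measure only the spread between these samples, which may be technical.

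Alveolar macrophages live in the air spaces, where they take up surfactant and inhaled particles. After injury, blood monocytes enter the lung and become macrophages that at first carry little Siglec F. The 5 genes belong to different pathways. Pla2g2d encodes a secreted phospholipase A2 that releases polyunsaturated fatty acids, from which lipid mediators that resolve inflammation can be made. Ecm1 encodes a secreted glycoprotein that binds basement membrane proteins and is known to hold latent TGF-beta in its inactive form. Cd209b encodes SIGN-R1, a C-type lectin best known from the marginal zone macrophages of the spleen, where it captures microbial polysaccharides. Stk39 encodes SPAK, a kinase that WNK kinases switch on and that phosphorylates cation chloride cotransporters. Cpeb1 encodes an RNA-binding protein that controls the length of poly(A) tails and the translation of its target mRNAs.

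All 5 are protein-coding genes on different chromosomes. In GENCODE M21 on GRCm38, Pla2g2d (ENSMUSG00000041202) lies on the plus strand at chr4:138775735-138782046. Ecm1 (ENSMUSG00000028108) lies on the minus strand at chr3:95734147-95739569, and Cd209b (ENSMUSG00000065987) on the minus strand at chr8:3917655-3926844. Stk39 (ENSMUSG00000027030) spans chr2:68210445-68472268 and Cpeb1 (ENSMUSG00000025586) chr7:81347026-81455465, both on the minus strand.

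The 250 bases before the RefSeq start site are shown for the 3 of these genes whose RefSeq and GENCODE starts lie within 3 bases of each other, because the 5 genes were higher in old macrophages together. The sequences are from RefSeq on GRCm38.p6, 5′ to 3′ on the strand of the gene, with the motif matches in capitals. They are chr4:138775485-138775734 on the plus strand for Pla2g2d, chr3:95739570-95739819 on the minus strand for Ecm1 and chr8:3926842-3927091 on the minus strand for Cd209b.
Pla2g2d: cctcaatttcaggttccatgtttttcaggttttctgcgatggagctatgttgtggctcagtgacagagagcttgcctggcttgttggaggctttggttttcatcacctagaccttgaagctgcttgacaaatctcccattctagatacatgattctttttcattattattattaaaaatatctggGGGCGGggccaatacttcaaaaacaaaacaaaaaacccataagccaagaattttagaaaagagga
Ecm1: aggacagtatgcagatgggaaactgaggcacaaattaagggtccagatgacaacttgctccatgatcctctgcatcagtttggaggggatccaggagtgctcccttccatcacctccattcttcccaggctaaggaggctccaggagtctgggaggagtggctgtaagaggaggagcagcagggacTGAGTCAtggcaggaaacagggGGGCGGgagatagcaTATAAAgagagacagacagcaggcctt
Cd209b: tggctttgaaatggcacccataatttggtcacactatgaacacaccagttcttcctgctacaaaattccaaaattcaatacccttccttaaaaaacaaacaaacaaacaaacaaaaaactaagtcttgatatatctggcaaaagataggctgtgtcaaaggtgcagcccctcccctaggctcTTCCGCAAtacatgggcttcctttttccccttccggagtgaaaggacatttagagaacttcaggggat
In these windows the capitals mark GGGCGG, the GC box, at base 186 of Pla2g2d, counted from 1 at the 5′ end. In Ecm1 they mark TGAGTCA, a match to the AP-1 motif TGANTCA, at base 187, GGGCGG at base 209 and TATAAA, the TATA box, at base 224. In Cd209b they mark TTCCGCAA at base 183, which is TTGCNNAA, a C/EBP motif, on the opposite strand.

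The motifs searched on both strands were the TATA box TATAAA, the GC box GGGCGG, the ETS motif GGAAGT, the AP-1 motif TGANTCA, the C/EBP motif TTGCNNAA and the E-box CACGTG, and no match overlapped one of another motif. Of 32851 mouse promoter windows of the same length, 12.368% held TATAAA, 32.742% GGGCGG, 19.741% GGAAGT, 6.749% TGANTCA, 9.564% TTGCNNAA and 6.021% CACGTG. No motif was found in all 5 windows. GGGCGG was in 4 of the 5, with 1 match each in Pla2g2d and Ecm1 and 4 each in Stk39 and Cpeb1. The genes differed in base composition. The windows of Pla2g2d, Cd209b and Ecm1 had 39.6, 41.6 and 54% G or C and 2, 2 and 1 CpG pairs, against a median of 52.4% and 6 pairs over all windows. Those of Cpeb1 and Stk39 had 74 and 82.4% G or C with 25 and 43 CpG pairs, above the upper quartiles of 61.2% and 16 pairs. The Stk39 and Cpeb1 windows lie inside the longer gene spans of GENCODE, so their values may not describe the sequence before the first base of those spans. A match describes letters only, and no binding was measured.

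The 22 libraries that resembled the rest of their group held 13423080 to 18124526 counts. Replicate 3 of the young asbestos Siglec F-high group had 11889517 counts, with 12528 genes detected, and correlated with the rest of its group at 0.865 (Pearson, log2 values across genes), against 0.971 to 0.993 for the 22. Replicate 3 of the old asbestos Siglec F-high group had a total of 3894699, with 35.6% on Gm42418, an rRNA-related gene model, and correlated at 0.9. Both stood apart, and results that rest on them are also given for the other 22 libraries. Values are normalised read counts (CPM, scaled with TMM factors), as mean ± SD of 4 libraries unless another n is given. A gene is called at an adjusted p under 0.05 in the quasi-likelihood test of edgeR, and log2 differences are given ± SE.

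Siglecf RNA followed the sort. Siglecf ranged from 312 to 614 CPM in the 16 Siglec F-high libraries and from 148 to 294 in the 8 Siglec F-low libraries, without overlap. Within the Siglec F-low sort it was lower in old mice, at means of 173 against 265 CPM (edgeR adjusted p = 0.0257, and 0.00039 with 22 libraries). All 17 resident alveolar macrophage markers were detected in every group. Siglecf was the 1 of them called by age in Siglec F-low cells, and 0 were called by age in Siglec F-high cells. With 22 libraries 2, 3 and 2 were called higher in old in naive, asbestos Siglec F-high and Siglec F-low cells. In the same order 0, 0 and 4 were called lower. In bulk samples, fewer cells that express a gene and less of its RNA per cell cannot be told apart.

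Old and young macrophages were compared in 3 settings, which are the comparisons that chose the 5 genes, so their values are a description without a test. Every one of the 5 was higher in old libraries in all 3 settings, and in none of the 15 pairs of groups did the old libraries overlap the young ones. The choice favours such separation, and how many of all genes separate in this way is not given here. Over all genes, edgeR called 2.03% in naive Siglec F-high cells, 4.76% in asbestos Siglec F-high cells and 1.29% in asbestos Siglec F-low cells. Among the 13467 tested genes, 72 were called higher in old in all 3 settings and 10 lower. The 5 genes are among the 72 by choice. Ranked by the smallest of their 3 log2 differences they took places 14 (Pla2g2d), 25 (Cd209b), 41 (Stk39), 58 (Ecm1) and 62 (Cpeb1); genes of this kind that the choice left out took the other places.

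**Figure D1:**
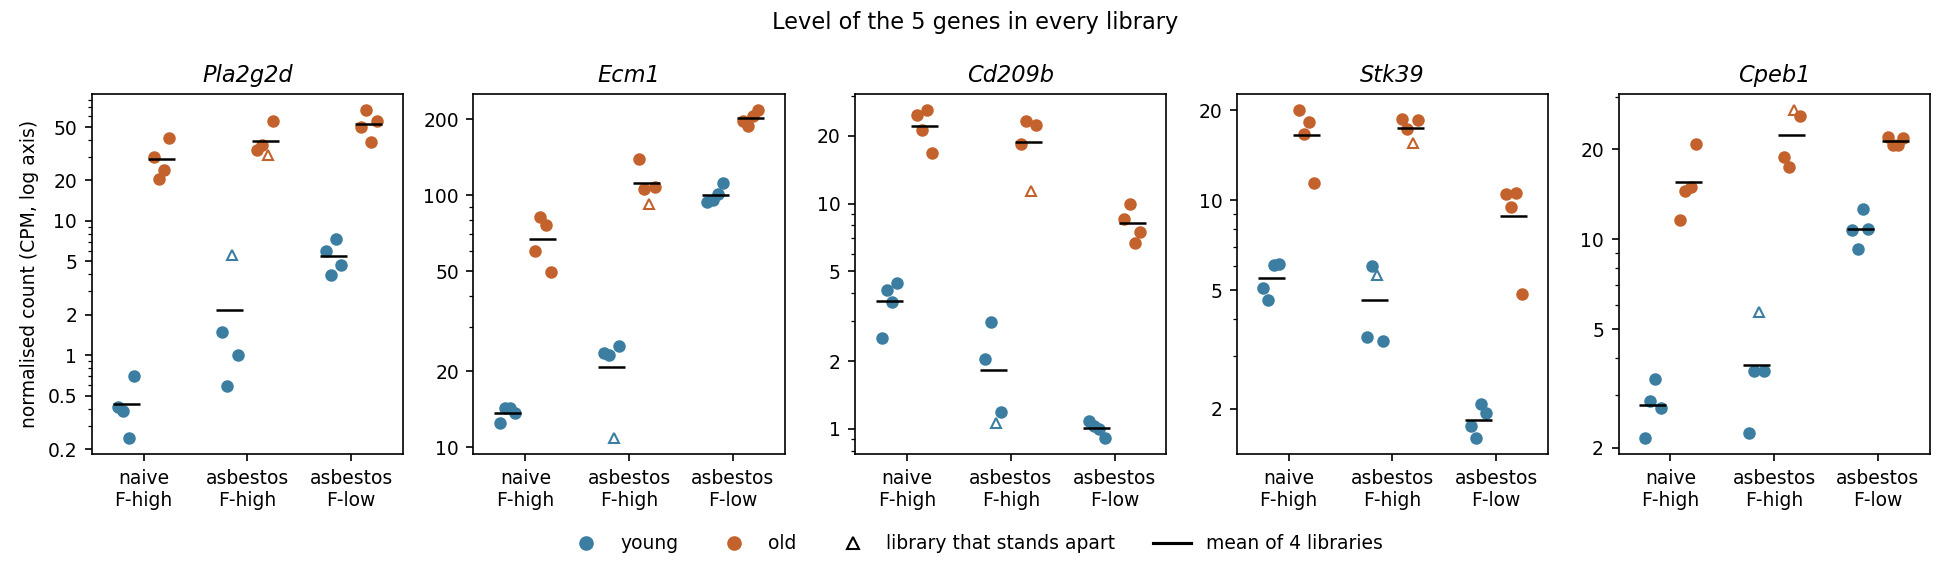
Level of each gene in each of the 24 libraries (points; normalised count in CPM on a log axis), by condition and sort on the x axis, with young libraries in blue and old in orange; lines are means of 4 libraries and open triangles are the libraries that stood apart. Old libraries lie above young ones within every condition and sort, while Ecm1 is highest and Cd209b and Stk39 are lowest in the Siglec F-low sort within an age.

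Pla2g2d, the secreted phospholipase, had the widest range. Its level in the 4 young naive libraries was 0.412, 0.382, 0.243 and 0.705 CPM, which was only 5 to 13 counts. The 4 old naive libraries had 29.7, 20.4, 24 and 41.1 CPM, or 363 to 695 counts. Naive means were thus 0.435 ± 0.194 and 28.8 ± 9.07 CPM, a log2 difference of 6.03 ± 0.52, which was the largest of the 5 genes and rank 9 of all tested genes by log2 difference.

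After asbestos, the young Siglec F-high libraries had 1.5, 0.596, 5.61 and 0.998 CPM of Pla2g2d. The high value, 5.61, is replicate 3, the library that stood apart; the mean of the other 3 was 1.03 ± 0.453 (SD, n = 3). Old asbestos Siglec F-high libraries had 33.6, 36.7, 31.0 and 55.8 CPM, so the lowest old library was still well above the highest young one. The 31.0 of replicate 3 rests on 38 counts. The log2 difference by age was 4.33 ± 0.45 with 24 libraries and 5.36 ± 0.34 with 22.

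In the Siglec F-low sort, Pla2g2d was at 5.93, 3.94, 7.32 and 4.68 CPM in young and at 50.1, 66.5, 39.0 and 55.0 CPM in old libraries. The log2 difference was 3.27 ± 0.41. Across all conditions, the 12 young libraries ran from 0.243 to 7.32 CPM (median 1.25) and the 12 old ones from 20.4 to 66.5 (median 37.8), with no overlap at all. The order of the group means was young naive, young asbestos F-high, young F-low (5.47 ± 1.48), old naive, old asbestos F-high (39.3 ± 11.3) and old F-low (52.6 ± 11.4). With 24 libraries the only neighbours in this order that did not overlap were young F-low and old naive libraries.

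Ecm1, the matrix glycoprotein, had the highest level of the 5 per length. Per kilobase of exon, its mean ran from 5.44 CPM in young naive to 80.3 CPM in old Siglec F-low libraries, against 0.194 and 23.5 CPM for Pla2g2d in the same groups. For Cd209b those levels per kilobase were 1.74 and 3.87 CPM, for Stk39 1.11 and 1.79 CPM, and for Cpeb1 0.664 and 5.08 CPM.

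The young naive libraries had 12.5, 14.3, 14.3 and 13.7 CPM of Ecm1 (mean 13.7 ± 0.859). Old naive libraries had 60.1, 82.3, 75.9 and 49.8 CPM (mean 67 ± 14.8), a log2 difference of 2.29 ± 0.2. The old libraries spread more widely than the young, and the lowest of them was far above the highest young one.

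Asbestos Siglec F-high libraries had 23.6, 23.3, 10.9 and 25.3 CPM of Ecm1 in young and 139, 106, 92.3 and 108 CPM in old mice. The lowest value of each age is its replicate 3. The log2 difference was 2.42 ± 0.2 with 24 libraries and 2.3 ± 0.14 with 22. In Siglec F-low libraries the young had 93.9, 95.5, 101 and 112 CPM and the old 197, 189, 206 and 217 CPM. Both groups were tight, and the log2 difference was 1.01 ± 0.19 with the young level near that of old Siglec F-high cells. The young Siglec F-low mean of 101 ± 8.2 CPM and the old asbestos Siglec F-high mean of 111 ± 19.9 CPM overlapped, and 7 of the 12 old libraries lay at or below the highest young library. These were the only neighbours in the order of the means that overlapped, apart from the young naive and young asbestos Siglec F-high groups.

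Cd209b, the lectin, had 2.52, 4.14, 3.64 and 4.44 CPM in young naive libraries and 24.7, 21.2, 25.9 and 16.8 CPM in old naive libraries. The means were 3.69 ± 0.844 and 22.1 ± 4.1 CPM, and the log2 difference was 2.58 ± 0.26. After asbestos, Siglec F-high libraries had 2.04, 2.98, 1.06 and 1.19 CPM in young and 18.3, 23.2, 11.4 and 22.2 CPM in old mice, a log2 difference of 3.38 ± 0.28. The values 1.06 and 11.4, the lowest of each age, are the libraries that stood apart, with 11 and 14 counts.

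Siglec F-low libraries had the least Cd209b within each age. Young ones had 1.08, 1.03, 1 and 0.913 CPM, or 16 to 18 counts, and old ones had 8.52, 10, 6.69 and 7.48 CPM. The log2 difference was 3.02 ± 0.29. No old library (lowest 6.69 CPM) was as low as any young one (highest 4.44 CPM). The order of the group means was young Siglec F-low, young asbestos Siglec F-high, young naive, old Siglec F-low, old asbestos Siglec F-high and old naive. With 24 libraries neighbouring young groups overlapped, as did the old asbestos and old naive Siglec F-high groups.

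Stk39, the kinase, had 5.1, 4.65, 6.07 and 6.12 CPM in young naive and 20, 16.7, 18.3 and 11.4 CPM in old naive libraries, a log2 difference of 1.59 ± 0.23. Asbestos Siglec F-high libraries had 3.48, 6.01, 5.61 and 3.37 CPM in young and 18.7, 17.3, 15.5 and 18.6 CPM in old mice. The old values lay close together. The log2 difference was 1.94 ± 0.24. Like Cd209b, Stk39 was lowest in the Siglec F-low sort, at 1.75, 1.6, 2.07 and 1.94 CPM in young and 10.5, 9.52, 10.6 and 4.86 CPM in old mice, a log2 difference of 2.27 ± 0.25. Old Siglec F-low replicate 4, at 4.86 CPM, was the 1 old library that fell within the range of the young libraries, whose highest was 6.12 CPM. The order of the means was young Siglec F-low, young asbestos Siglec F-high, young naive, old Siglec F-low, old naive and old asbestos Siglec F-high, and the libraries did not overlap at the first and the fourth of the 5 steps.

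Cpeb1, the RNA-binding protein, had 2.16, 2.86, 3.4 and 2.71 CPM in young naive and 11.6, 14.5, 15 and 20.9 CPM in old naive libraries, a log2 difference of 2.47 ± 0.23. In asbestos Siglec F-high libraries it was at 2.25, 3.63, 5.7 and 3.62 CPM in young and 18.9, 17.5, 27 and 25.8 CPM in old mice. Here the highest value of each age is the library that stood apart. The log2 difference was 2.54 ± 0.23. Siglec F-low libraries had 10.7, 9.24, 12.6 and 10.8 CPM in young and 22, 20.7, 20.6 and 21.9 CPM in old mice. The difference by age there was 0.97 ± 0.21 on the log2 scale. Young Siglec F-low cells had more Cpeb1 than any other young group, and their highest library, 12.6 CPM, was above the lowest old naive one, 11.6 CPM. In the order of the means, from young naive through young asbestos Siglec F-high, young Siglec F-low, old naive and old Siglec F-low to old asbestos Siglec F-high, only the step into young Siglec F-low was free of overlap.

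Set side by side, the differences by age fell into different patterns over the 3 settings. For Pla2g2d, Ecm1 and Cpeb1 the log2 difference was smallest in Siglec F-low cells, at 3.27, 1.01 and 0.97, where the young level was highest. For Stk39 it was largest there, at 2.27, and for Cd209b it was largest in asbestos Siglec F-high cells, at 3.38. These differences between differences come from the comparisons that chose the genes and were not tested.

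Siglec F-low and Siglec F-high cells from asbestos mice were then compared within each age. This comparison was not used to choose the genes, but its libraries also entered the comparisons by age that did, so it is not independent of the choice. How many of all genes separate without overlap between the sorts is not given here. In young mice, Ecm1 and Cpeb1 rose in Siglec F-low against Siglec F-high cells, while Stk39 fell. In old mice Ecm1 rose again, and Cd209b and Stk39 fell. So Ecm1 was called higher and Stk39 lower at both ages.

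**Figure D2:**
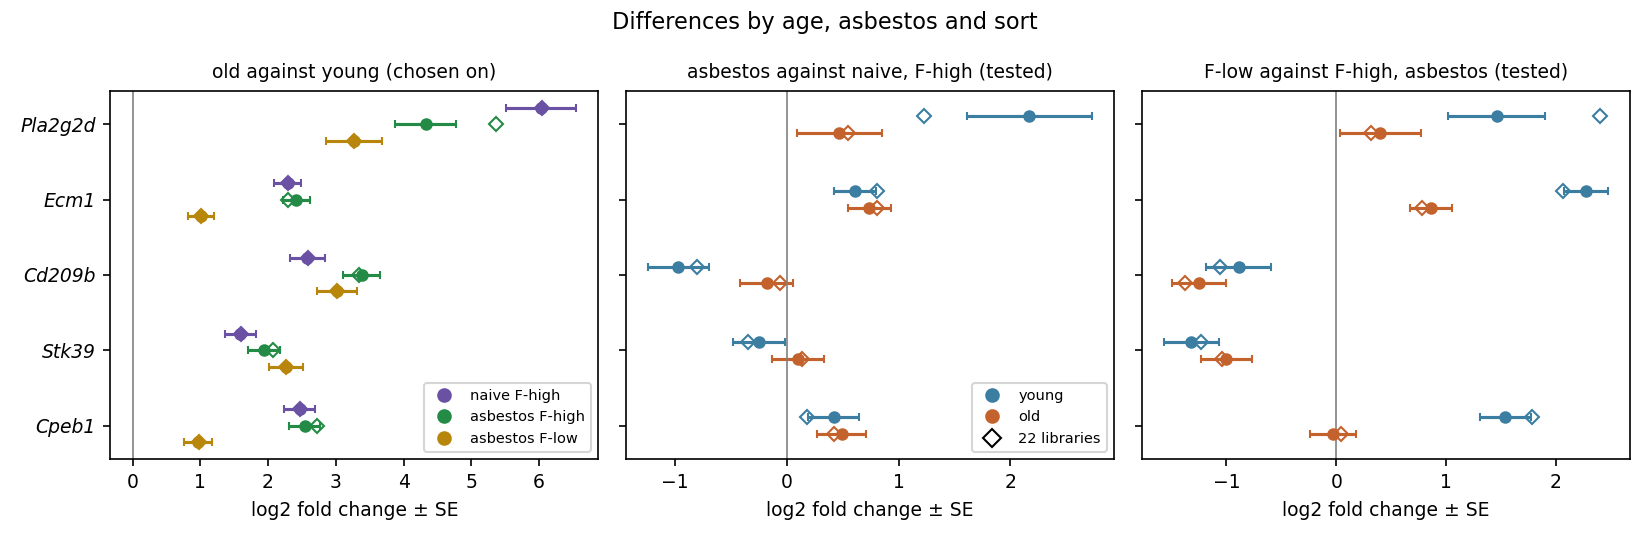
Log2 fold changes of the 5 genes, with bars of 1 SE (filled circles, 24 libraries) and the values from 22 libraries (open diamonds), for old against young (left, the comparison that chose them), asbestos against naive in Siglec F-high cells (middle) and Siglec F-low against Siglec F-high cells (right). In the right panel Ecm1 lies above 0 and Cd209b and Stk39 below 0 at both ages, while Cpeb1 is at 1.54 in young and -0.03 in old mice.

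In young asbestos mice, 3 of the 5 genes were called by edgeR, against 4.99% of all genes. The mean of Ecm1 was 101 ± 8.2 CPM in Siglec F-low and 20.8 ± 6.63 CPM in Siglec F-high cells, a log2 difference of 2.27 ± 0.2 (edgeR adjusted p = 2.05e-07), with the lowest Siglec F-low library at 93.9 and the highest Siglec F-high library at 25.3 CPM. Cpeb1 was at 10.8 ± 1.39 against 3.8 ± 1.42 CPM, a log2 difference of 1.54 ± 0.23 (edgeR adjusted p = 0.000159), and these libraries did not overlap either. Stk39 was at 1.84 ± 0.206 against 4.62 ± 1.39 CPM, a log2 difference of -1.32 ± 0.25 (edgeR adjusted p = 0.0021), again without overlap. Those 3 genes thus split in direction.

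Pla2g2d and Cd209b did not pass in young mice with 24 libraries. For Pla2g2d the log2 difference was 1.46 ± 0.44 (edgeR adjusted p = 0.0585), with replicate 3 of the Siglec F-high group, at 5.61 CPM, inside the Siglec F-low range. Without the libraries that stood apart it was 2.4 ± 0.37 (edgeR adjusted p = 0.000125) and the groups did not overlap. For Cd209b the log2 difference was -0.89 ± 0.3 (edgeR adjusted p = 0.0907), and -1.06 ± 0.29 with 22 libraries (edgeR adjusted p = 0.0182). All 5 genes were therefore called with 22 libraries, against 12% of all genes, 3 of them higher and 2 lower in Siglec F-low cells.

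In old asbestos mice, 3 of the 5 were called as well, against 4.3% of all genes. Ecm1 was at 202 ± 12 CPM in Siglec F-low and 111 ± 19.9 CPM in Siglec F-high cells, a log2 difference of 0.86 ± 0.19 (edgeR adjusted p = 0.00931). Cd209b was at 8.18 ± 1.45 against 18.8 ± 5.34 CPM, a log2 difference of -1.25 ± 0.25 (edgeR adjusted p = 0.0038), and Stk39 at 8.89 ± 2.73 against 17.5 ± 1.47 CPM, a log2 difference of -1 ± 0.23 (edgeR adjusted p = 0.0129). The libraries of the 2 sorts did not overlap for any of these 3 genes, which has no count over all genes beside it. Pla2g2d, at 52.6 against 39.3 CPM, and Cpeb1, at 21.3 against 22.3 CPM, overlapped between sorts, with log2 differences of 0.4 ± 0.37 and -0.03 ± 0.21 (edgeR adjusted p = 0.719 and 0.988). With 22 libraries there were 3 of 5 called, against 11.6% of all genes: Ecm1 at 0.78, Cd209b at -1.38 and Stk39 at -1.04 on the log2 scale.

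Markers of other cells moved with the sort. Of 15 monocyte and interstitial macrophage markers, 5 were called higher in Siglec F-low cells of young mice and 7 in old mice, none lower. C1qa, a complement gene of interstitial and monocyte-derived macrophages, was at 33 to 42.5 CPM in young Siglec F-low against 3.91 to 7.26 CPM in young Siglec F-high libraries. In old mice it was at 48.6 to 65 against 1.63 to 4.8 CPM. The summed level of the 15 markers was 2378 to 2696 CPM in young Siglec F-low and 1286 to 2408 CPM in young Siglec F-high libraries, and 2235 to 2467 against 2023 to 2587 CPM in old ones. Of the 17 resident markers, 1 was called higher and 6 lower in young and 1 higher and 5 lower in old Siglec F-low cells. Of 11 tested T and NK cell markers, 1 was called higher at each age. It was Il7r, the receptor for interleukin 7, at 50.1 against 11.2 CPM in young and 66.3 against 9.42 CPM in old mice as group means. Group means of the T cell gene Cd3e were 2.74 against 2.6 and 1.72 against 2.63 CPM, and it was not called. Sdc1, a plasma cell and epithelial surface gene, was the 1 of 12 B and plasma cell markers called, higher in Siglec F-low cells at both ages (7.09 against 1.01 and 9.35 against 1.2 CPM). Epcam was the 1 of 8 epithelial markers called, lower in Siglec F-low cells at both ages (24.9 against 91.5 and 27.7 against 76.1 CPM). The part of these cells in the differences between sorts was not tested.

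Asbestos and naive mice were compared in Siglec F-high cells, a comparison that also did not choose the genes but shares its libraries with those that did. In young mice 1 of the 5 genes, Pla2g2d, was called higher, against 1.9% of all genes. In old mice no gene of the 5 was called, against 0.78% of all genes. Ecm1 did not pass at either age with 24 libraries and passed at both with 22. How many of all genes separate without overlap between asbestos and naive libraries is not given here.

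In young mice Pla2g2d had a log2 difference of 2.17 ± 0.56 (edgeR adjusted p = 0.047). The groups overlapped, and this call rests on replicate 3 of the asbestos group: with 22 libraries the log2 difference was 1.23 ± 0.56 (edgeR adjusted p = 0.239). Ecm1 was at 20.8 ± 6.63 against 13.7 ± 0.859 CPM, a log2 difference of 0.61 ± 0.19 (edgeR adjusted p = 0.112). With 22 libraries it was at 24.1 ± 1.09 CPM (n = 3) in the asbestos group, above every naive library, at a log2 difference of 0.81 ± 0.14 (edgeR adjusted p = 0.000894). It was then the 1 gene of the 5 called, against 5.06% of all genes. Cd209b, Stk39 and Cpeb1 had log2 differences of -0.97 ± 0.27, -0.25 ± 0.23 and 0.42 ± 0.23, with edgeR adjusted p = 0.065, 0.551 and 0.321, and their groups overlapped.

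In old mice the log2 difference of Ecm1 was 0.74 ± 0.19 (edgeR adjusted p = 0.0751), with asbestos libraries from 92.3 CPM upward and naive ones up to 82.3 CPM. With 22 libraries it was 0.81 ± 0.12 (edgeR adjusted p = 0.000346), and Ecm1 was the 1 gene of the 5 called, against 4.12% of all genes. Pla2g2d, Cd209b, Stk39 and Cpeb1 had log2 differences of 0.47 ± 0.38, -0.18 ± 0.24, 0.1 ± 0.23 and 0.49 ± 0.22 (edgeR adjusted p = 0.876, 0.977, 0.999 and 0.496). At an unadjusted p under 0.05, edgeR had 2 of the 5 in old mice, Ecm1 and Cpeb1, beside 1151 of all 13467 tested genes. DESeq2 and limma voom each called 1 of the 5, and their share over all genes is not given here. B and plasma cell markers moved in this comparison: in young mice 3 of 12 were called lower with asbestos (6 with 22 libraries), and in old mice edgeR called 0 (7 at an unadjusted p under 0.05, 2 by DESeq2, 4 by limma voom and 3 by edgeR with 22 libraries). Their part in the differences was not tested.

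The families and pathways of the 5 genes were read next, from lists that leave the 5 genes out. With 24 libraries edgeR called 7, 17 and 4 of their 134 tested genes by age in naive Siglec F-high, asbestos Siglec F-high and asbestos Siglec F-low cells, or 5.22, 12.7 and 2.99%, beside 2.03, 4.76 and 1.29% of all genes. Limma voom called 29, 32 and 29, which cannot be set against the edgeR shares of all genes. The lists were chosen with earlier results of these data known, so these shares are a description. Counts are of genes called by edgeR with 24 libraries in the same order of settings. Where counts at an unadjusted p under 0.05 are given, edgeR had 1164, 3538 and 1097 of all 13467 tested genes at that limit. Counts by DESeq2 and limma voom are given without their share over all genes, so they cannot be read against a background.

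Phospholipases A2 split membrane lipids into fatty acids and lysolipids. Counts were given for 19, of which 8 were tested, and 0, 0 and 0 of them were called with age, at medians of 0.13, 0.04 and -0.01 on the log2 scale against -0.01, 0.04 and -0.01 over all genes. At an unadjusted p under 0.05 there were 2, 1 and 0; DESeq2 called 0 in each setting, limma voom 3, 3 and 0, and edgeR with 22 libraries 2, 0 and 0, where 8.03, 7.32 and 7.21% of all genes were called. Pla2g2d sits in a cluster of related genes on chromosome 4, and its neighbours were nearly silent. Pla2g2a, Pla2g2c and Pla2g2f had 0 counts in all 24 libraries. Pla2g2e had 5 counts in the old asbestos Siglec F-high group, 7 in the old Siglec F-low group and 0 in the other groups, and Pla2g5 had 2 counts in young and 1 in old Siglec F-low libraries, against 32 to 3370 counts of Pla2g2d per group.

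**Figure D3:**
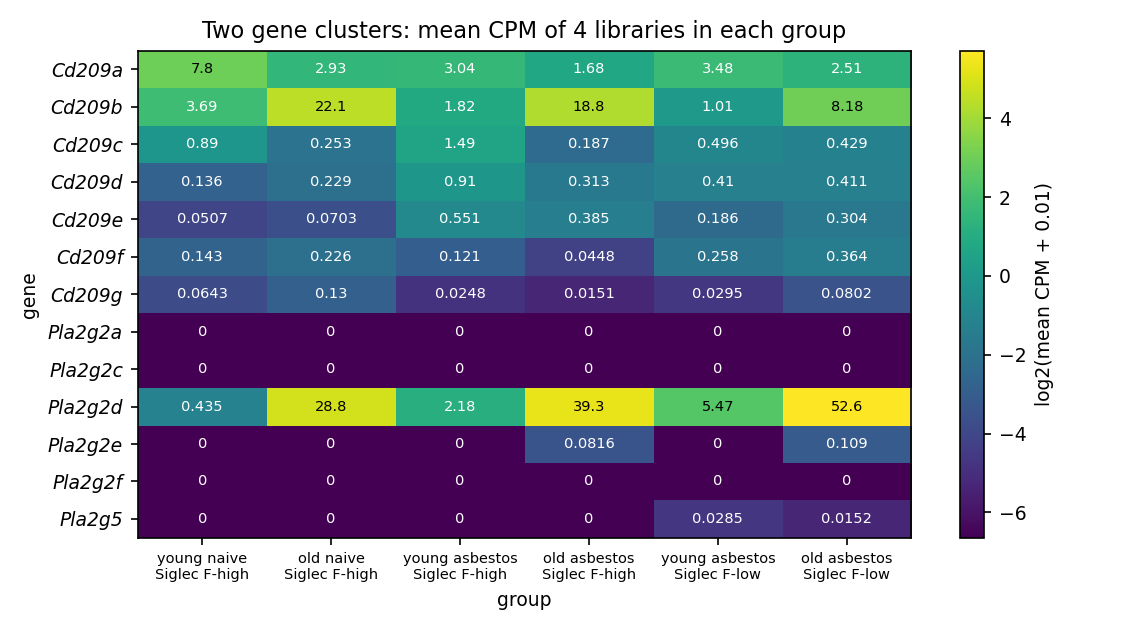
Mean level (CPM, 4 libraries; numbers in the cells, colour on a log2 scale) of the Cd209 and the secreted phospholipase genes near Cd209b and Pla2g2d in the 6 groups. Among the genes shown, Pla2g2d has 28.8 to 52.6 CPM in old groups while its neighbours stay at or below 0.109, and Cd209b is higher in old groups while Cd209a is at 1.68 to 2.93 CPM in old and 3.04 to 7.8 CPM in young groups.

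Eicosanoid and resolvin genes make and sense the mediators derived from released fatty acids. Of 20 tested, 1 rose in naive cells, 2 rose and 3 fell in asbestos Siglec F-high cells, and 0 were called in Siglec F-low cells, where 7 had an unadjusted p under 0.05 and DESeq2, limma voom and edgeR with 22 libraries called 2, 7 and 6. Tbxas1, which makes thromboxane, rose from 164 ± 30.3 to 220 ± 16.5 CPM in naive cells (log2 0.42 ± 0.11, edgeR adjusted p = 0.041) and from 191 ± 14.6 to 256 ± 15.8 CPM in asbestos Siglec F-high cells (edgeR adjusted p = 0.0281). Ptges, a prostaglandin E synthase, rose in the latter by 1.42 ± 0.36 (edgeR adjusted p = 0.0285). The formyl peptide receptors Fpr2 and Fpr1 fell there by 1.05 and 0.55 on the log2 scale (edgeR adjusted p = 0.00189 and 0.0132).

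C-type lectin receptors bind sugars on microbes and on the body's own proteins. Of 24 tested, 2 rose and 2 fell in naive, 2 rose and 3 fell in asbestos Siglec F-high, and 1 rose and 1 fell in Siglec F-low cells. Clec1a was the 1 gene of this list called higher in old in all 3 settings: it rose from 4.99 ± 0.949 to 16.1 ± 4.37, from 7.55 ± 5.31 to 19.3 ± 4.27 and from 4.32 ± 0.346 to 16.8 ± 2.05 CPM, log2 differences of 1.69, 1.33 and 1.95 (edgeR adjusted p = 0.00199, 0.0155 and 0.00124). Colec12, a scavenger receptor with a collagen stalk, rose in naive and asbestos Siglec F-high cells, by 1.51 and 1.56 (edgeR adjusted p = 0.0116 and 0.00811). Clec4a3 fell in those cells by 0.54 and 0.75 on the log2 scale (edgeR adjusted p = 0.0492 and 0.00385), and Clec4n, which encodes Dectin-2, fell in Siglec F-low cells by 0.6 (edgeR adjusted p = 0.0457).

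The Cd209 genes, mouse relatives of human DC-SIGN, did not follow Cd209b. Cd209a fell in old naive cells, from 7.8 ± 3.09 to 2.93 ± 0.152 CPM (log2 -1.41 ± 0.37, edgeR adjusted p = 0.0499). Cd209c, the nearest neighbour of Cd209b at 13.4 kb, fell in old asbestos Siglec F-high cells from 1.49 to 0.187 CPM (log2 -2.54 ± 0.72, edgeR adjusted p = 0.044); with 22 libraries this was -1.36 (edgeR adjusted p = 0.184). Cd209d, Cd209e, Cd209f and Cd209g stayed below 1 CPM in every group. Reads shared between these similar genes cannot be traced from gene counts, so the split among them is uncertain.

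Genes of the WNK and SPAK pathway control the chloride content and volume of cells. Of 22 tested, 0, 0 and 0 rose with age and 0, 1 and 0 fell, while 2, 3 and 1 had an unadjusted p under 0.05; DESeq2 called 0, 1 and 0 and limma voom 2, 1 and 2. The 1 was Klhl2, which encodes an adaptor that marks WNK kinases for degradation, at -0.38 ± 0.1 (edgeR adjusted p = 0.0334). Oxsr1, the sister kinase of SPAK, had 68.8 to 91.6 CPM as group means, with age differences of -0.06, -0.1 and -0.07 on the log2 scale (edgeR adjusted p = 1, 0.47 and 1).

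Of 24 tested genes of cytoplasmic polyadenylation, 0 were called in naive and Siglec F-low cells, where 1 and 3 had an unadjusted p under 0.05, DESeq2 called 0 and 0 and limma voom 1 and 3. In asbestos Siglec F-high cells 1 rose and 2 fell. Aurka, a mitotic kinase, and Tacc3, its partner at the spindle, fell by 1.12 and 0.95 on the log2 scale (edgeR adjusted p = 0.0135 and 0.0172), and by 0.59 and 0.45 with 22 libraries. Cpeb4, a paralogue of Cpeb1, rose by 0.57 ± 0.16 (edgeR adjusted p = 0.0423), and was at 0.28 with 22 libraries (edgeR adjusted p = 0.156).

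Basement membrane and matrix glycoprotein genes encode proteins of the kind that Ecm1 binds. Of 18 tested, 2, 3 and 2 rose with age and 0 fell, at medians of -0.01, 0.25 and 0.25. Col4a1 and Col4a2, the chains of type IV collagen, were called in all 3 settings. Col4a2 rose from 2.68 ± 0.359 to 177 ± 50.3 CPM in naive, from 4.96 ± 1.93 to 170 ± 76 CPM in asbestos Siglec F-high and from 15.9 ± 1.41 to 178 ± 131 CPM in Siglec F-low cells (edgeR adjusted p = 7.24e-08, 2.17e-07 and 2.82e-05). Col4a1 rose by 6.81, 4.74 and 3.48 on the log2 scale (edgeR adjusted p = 3.94e-07, 1.1e-05 and 0.00041). Nid1, which links laminin and collagen networks, rose in asbestos Siglec F-high cells from 0.473 to 4.49 CPM (edgeR adjusted p = 0.00233). Of 19 tested genes that store or activate latent TGF-beta, 0, 0 and 0 were called with age, with 5, 3 and 5 at an unadjusted p under 0.05; DESeq2 called 0, 2 and 1 and limma voom 3, 2 and 5.

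With 22 libraries the lists gave 22, 21 and 22 calls of 134 genes, or 16.4, 15.7 and 16.4%, beside 8.03, 7.32 and 7.21% of all genes. Not every list gave more: in asbestos Siglec F-high cells the lectins called lower went from 3 to 1, the eicosanoid genes called lower from 3 to 2 and the polyadenylation genes called higher from 1 to 0. C-type lectin receptors had 7, 4 and 3 higher and 3, 1 and 1 lower in old cells, and basement membrane genes 4, 4 and 3 higher and 0, 2 and 2 lower. Eicosanoid genes had 2, 2 and 4 higher and 2, 2 and 2 lower, WNK and SPAK genes 1, 0 and 1 higher and 0, 1 and 0 lower, polyadenylation genes 0 higher and 1, 3 and 2 lower, and latent TGF-beta genes 0, 1 and 3 higher and 0, 1 and 1 lower.

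The genes next to the 5 on their chromosomes were read as well. Of 30 neighbours, 3 on each side, 15 were tested, and 1, 2 and 1 were called by age in the 3 settings, or 6.67, 13.3 and 6.67% beside the 2.03, 4.76 and 1.29% of all genes. Limma voom called 4, 5 and 2, again without its share over all genes. Fsd2, 77.8 kb from Cpeb1, rose in old naive cells from 5.26 to 11.5 CPM (log2 1.13 ± 0.26, edgeR adjusted p = 0.0204). Tars2, which lies on the same strand with its 3′ end 0.4 kb from Ecm1, fell in old asbestos Siglec F-high cells by 0.35 (edgeR adjusted p = 0.0488, and 0.122 with 22 libraries). Spc25, 721.6 kb from Stk39, fell in old Siglec F-low cells by 0.73 (edgeR adjusted p = 0.0267).

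Over the 24 libraries the 5 genes formed 2 pairs, with Ecm1 nearer to one of them. These correlations describe points that share age groups and libraries, and the age difference that chose the genes is in them. By Spearman's rho of log2 CPM, Cd209b and Stk39 were at 0.927 and Pla2g2d and Cpeb1 at 0.922, while Ecm1 was at 0.775 with Pla2g2d, 0.763 with Cpeb1, 0.232 with Cd209b and 0.159 with Stk39. With 22 libraries the pair values were 0.939 and 0.944.

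Among all tested named genes, those most like each of the 5 were as follows. Cd209b was most like Ttll7 (0.939), H2-Aa (0.93) and Cd74 (0.929). H2-Aa and Cd74 belong to MHC class II, which presents antigen to CD4+ T cells: H2-Aa was at 306 ± 110 CPM in young and 1514 ± 227 CPM in old naive libraries, and at 265 ± 15.5 and 825 ± 188 CPM in young and old Siglec F-low ones. Stk39 was most like Cd209b, then the growth factor gene Fgf1 (0.913) and Bicd1 (0.897). Fgf1 was at 9.45 ± 1.94 and 35.7 ± 8.09 CPM in young and old naive cells and at 2.77 ± 0.136 and 14.7 ± 9.16 CPM in young and old Siglec F-low cells. The order of these 4 groups was that of Stk39. The order over all 6 was not, since Fgf1 had a higher mean in old naive (35.7 CPM) than in old asbestos Siglec F-high cells (30.0 CPM), while Stk39 had 16.6 and 17.5 CPM.

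Ecm1 was most like Lacc1 (0.968), Ephx1, an epoxide hydrolase (0.958), and Fam219a (0.944). Lacc1 was at 1.82 ± 0.421 CPM in young naive, 7.83 ± 0.879 in young Siglec F-low and 15.5 ± 1.33 in old Siglec F-low libraries. Pla2g2d was most like Cpeb1, Pdk4, a kinase that holds back glucose oxidation (0.917), and Palmd (0.905). Cpeb1 was most like Pla2g2d, Mlph (0.919) and Zbtb7c (0.91). With 22 libraries the 3 most like genes shared 1 of 3 with these for Pla2g2d, Ecm1 and Cd209b, 3 of 3 for Stk39 and 2 of 3 for Cpeb1. The first for Pla2g2d was then Zbtb7c (0.954), and H2-Aa and Cd74 were not among the 3 for Cd209b. By Pearson's correlation over 24 libraries the first differed for Ecm1, Cd209b and Stk39, and Cd209b shared 0 of 3. Single names, the first included, are therefore loosely held.

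Markers of other cells stood as follows in the comparisons by age. Of 7 further markers of marginal zone and medullary macrophages, the cells best known for Cd209b, 6 were tested, and 1 was called higher in old naive and 1 in old asbestos Siglec F-high cells. Their sum was 669 to 1322 CPM in young naive and 697 to 1116 CPM in old naive libraries, most of it Siglec1 and Marco. Cd5l had 0 counts in old naive Siglec F-high and in both asbestos Siglec F-high groups, and Spic stayed at or below 1.52 CPM there. In Siglec F-low cells Cd5l had 7 counts in young and 90 counts in old libraries, up to 4.8 CPM in 1 of them. The marker called in both Siglec F-high comparisons was Vcam1, an adhesion molecule. It was at 0.437 to 0.824 CPM in young and 2.55 to 7.17 CPM in old naive libraries (edgeR adjusted p = 0.00861), and its means were 0.511 and 8.63 CPM in young and old asbestos Siglec F-high cells (edgeR adjusted p = 0.00214). In Siglec F-low cells they were 1.81 and 7.04 CPM (edgeR adjusted p = 0.128, and 0.00965 with 22 libraries).

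B and plasma cell markers summed to 205 to 234 CPM in young naive and 193 to 228 CPM in old naive libraries, most of it Cd22 at means of 156 and 153 CPM, with 0 of 12 called by age in naive cells (0 at an unadjusted p under 0.05, 0 by DESeq2 and 0 by limma voom). In the asbestos groups edgeR also called 0 of 12 with 24 libraries, where 1 and 2 had an unadjusted p under 0.05 in Siglec F-high and Siglec F-low cells, DESeq2 called 1 and 1, limma voom 2 and 2, and edgeR with 22 libraries 2 and 2. The latter 2 were the plasma cell genes Jchain and Mzb1, both higher in old: Jchain had means of 2.84 and 13.9 CPM and Mzb1 0.555 and 1.73 CPM in young and old Siglec F-low cells.

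Dendritic cell markers summed to 80 to 108 CPM in young naive and 75.8 to 104 CPM in old naive libraries, and the 1 of 11 called was Cd209a, lower in old. In Siglec F-low cells they summed to 86.2 to 113 CPM in young and 120 to 149 CPM in old libraries, without overlap. The 1 called there was Irf4, a transcription factor of dendritic cells, B cells and macrophages, whose mean was 11.6 in young and 37.5 CPM in old libraries (log2 1.69 ± 0.23, edgeR adjusted p = 0.000276). In asbestos Siglec F-high cells Irf4 was called higher in old (7.02 to 16.8 CPM) and Ccr7 lower (10.7 to 5.11 CPM, edgeR adjusted p = 0.0481, and 0.107 with 22 libraries). Epithelial markers summed to 180 to 277 CPM in young and 286 to 391 CPM in old naive libraries, without overlap. Nearly all of it was Epcam and Cdh1, at means of 124 and 94.4 CPM in young and 172 and 134 CPM in old libraries, and 0 of 8 were called (1 at an unadjusted p under 0.05, 0 by DESeq2 and 1 by limma voom). Of 6 tested neutrophil and eosinophil markers, Csf3r was called lower in old naive cells, at 22 against 42 CPM (edgeR adjusted p = 0.0117), while S100a8 was at 10.7 against 3.22 CPM (edgeR adjusted p = 0.0771, and 0.000498 with 22 libraries).

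Monocyte and interstitial markers summed to 1737 to 2002 CPM in young and 1773 to 2082 CPM in old naive libraries, with 1 of 15 called higher. In asbestos Siglec F-high cells 2 of those 15 were called higher in old with 24 libraries and 4 with 22, at a median of 0.04. The 2 were Itgam, at 25.8 against 11.4 CPM (edgeR adjusted p = 0.000629), and Ly6c2, at 1.68 against 0.0953 CPM (edgeR adjusted p = 0.00243). In Siglec F-low cells 1 of those 15 was called higher in old with 24 libraries and 8 with 22, at a median of 0.64, while their summed level overlapped. The part of these cells in the differences by age was not tested.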

How the data were processed

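The authors deposited 1 table of raw whole-number counts per Ensembl gene, 24 columns matched to samples by title. The submitters' processing notes name bcl2fastq 2.19.1, FastQC, Trimmomatic 0.36, STAR 2.6.0, HTSeq 0.11.2 and mm10, with no roles; strand setting and annotation are not given in the sources used here. Genes were kept with filterByExpr (minimum count 10, minimum total 15), scaled with TMM and fitted in 1 quasi-likelihood model of 6 groups with edgeR 4.0.16 (R 4.3.3), with Benjamini-Hochberg adjustment over all genes of each of 7 comparisons. Log2 CPM used a prior count of 2. Symbols were found for 42462 IDs; 968 had none. The members and lists were chosen with earlier results of these data known.

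Named genes were the 5, the 3 most like each by Spearman's rho, list genes called in all 3 age comparisons or among the 2 of smallest p in a direction, called neighbours, and up to 3 markers of a cell type. Genes added outside that rule because they belong to the Cd209 and phospholipase clusters, or as the paralogue Oxsr1, and further B and plasma cell markers, were named after their values were seen. Alternatives were RLE and upper quartile scaling, DESeq2 1.42.0, voom of limma 3.58.1, other filters, only the 2 groups compared, a replicate block, each library left out and, with the block added after seeing the data, 22 libraries. The fit was tested on simulated data. Protein sequences were not analysed here.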

Additional observations from a re-analysis of the deposited data

Results flagged for a closer look

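In the young asbestos Siglec F-high group the lowest Ecm1 level, 10.9 CPM in replicate 3, lay far from the other 3 libraries at 23.3 to 25.3 CPM, past the 95% limit of Dixon's test for 4 samples. It was the 1 such value among 30 groups of 4 libraries (5 genes in 6 groups), where chance gives about 1 in 20. This is the library that stood apart across genes, with 12528 genes detected and a correlation of 0.865 with the rest of its group. In the same library Pla2g2d was at 5.61 CPM, the highest of its group, and B and plasma cell markers went both ways: Cd22 was at 48.8 CPM against 159 to 169 CPM in the other 3, while Jchain was at 18.8 CPM against 2.63 to 5.3 CPM and Pax5 at 5.9 CPM against 0.811 to 1.59 CPM.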

How the results depend on the processing

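In the 3 comparisons by age, 497 values of the 5 genes under the 34 alternatives moved by less than 1 SD between replicates and 13 by more, none changing sign. Of the tested values, 619 stayed on the same side of the threshold in the same direction, 27 passed it newly, 28 no longer passed and 6 changed sign. Those 6 were small: Cpeb1 in Siglec F-low against Siglec F-high cells of old mice was at -0.03, and at 0.04 with 22 libraries, 0.07 with voom, 0.03 with 22 libraries and the replicate block, and -0.13 to 0.08 with a library left out. Stk39 in asbestos against naive old mice was at 0.1 and at -0.05 to 0.2 with a library left out. The cause of these changes was not tested.

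Asbestos against naive in young mice called 1 of the 5 genes, but 3 with DESeq2, 0 with only the 2 groups compared, 0 with the replicate block, 2 with 22 libraries and the block, and 0 to 2 with a library left out. In old mice it called 0, but 1 with 22 libraries, DESeq2, voom, a minimum count of 30 or 22 libraries and the block, and 0 to 1 with a library left out. Siglec F-low against Siglec F-high in young mice called 3, but 5 with 22 libraries, DESeq2, voom or 22 libraries and the block, 1 with only the 2 groups compared and 3 to 5 with a library left out. In old mice that comparison stayed within 1.5 times of 3 called. With 22 libraries the shares of all genes called are given above. For the other alternatives these shares are not given here, so their counts of the 5 genes cannot be read against a background. The number called of all genes moved too. Over the 34 alternatives it ran from 10 to 1895 and from 39 to 725 for asbestos against naive in young and old mice. For Siglec F-low against Siglec F-high it ran from 181 to 2440 in young and from 269 to 2089 in old mice.

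Pathway genes called by age numbered 7, 17 and 4 in naive, asbestos Siglec F-high and Siglec F-low cells. They numbered 22 in the first and 22 in the last with 22 libraries; 29, 32 and 29 with voom; 4 and 11 in the first and second with no filter; 14, 2 and 22 with only the 2 groups compared; 8 in the last with DESeq2; and 30, 27 and 25 with 22 libraries and the block. Leaving a library out gave 3 to 14, 10 to 25 and 3 to 16. Neighbouring genes called numbered 1, 2 and 1. They numbered 3 in the first and 2 in the last with 22 libraries; 4, 5 and 2 with voom; 5 in the second with DESeq2; 0 in the second and last with no filter; 0 and 2 there with only the 2 groups compared; 0 in the second with the replicate block; and 5 in the first and 2 in the last with 22 libraries and the block. Leaving a library out gave 0 to 3, 0 to 5 and 0 to 2. Apart from 22 libraries, these counts also lack the share of all genes called under the same alternative, so they cannot be read against a background. Over all genes, 24 libraries called fewer in each comparison than 22 did. Across the alternatives the number called of all genes ran from 179 to 1870, 17 to 1896 and 77 to 1285 in the 3 comparisons by age.

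The labels do not say that replicate numbers pair samples. Same-numbered libraries correlated from -0.286 to 0.245 over the 7 comparisons with 24 libraries, and no comparison had all of its pairs above 0.1. With 22 libraries the old asbestos sorts did, at 0.15 to 0.205 over 3 pairs. The young asbestos sorts were then at 0.0854 to 0.319. Among the 24 libraries, old Siglec F-low libraries correlated best with the Siglec F-high library of their own number in 4 of 4 pairs. In young mice 1 of 4 did. Among the 22 libraries 3 of 3 did at each age. Whether the sorts share animals was not tested, and the main fit treats their libraries as unpaired. RLE and upper quartile scaling moved the median log2 difference of all genes by less than 0.1. Depth limits the low values most: Pla2g2d had 5 to 13 counts in young naive libraries, and old asbestos Siglec F-high replicate 3 had 14 to 113 counts of each of the 5 genes.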

Other observations

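The same family and pathway lists held genes that changed with asbestos or between the sorts; these genes were named after their values were seen. Among phospholipases A2, 1 of 8 tested was called higher in Siglec F-low than in Siglec F-high cells at each age. This was Pla2g7, which breaks down platelet-activating factor, at 43.5 ± 8.47 against 10.5 ± 3.78 CPM in young (log2 2.06 ± 0.28, edgeR adjusted p = 6.11e-05) and 52.7 ± 9.76 against 13.5 ± 5.71 CPM in old mice (log2 1.88 ± 0.28, edgeR adjusted p = 0.000256). It was also higher in asbestos than in naive Siglec F-high cells, by 1.79 ± 0.29 in young and 1.4 ± 0.29 in old mice (edgeR adjusted p = 0.00139 and 0.0195). Ptgs1, which encodes cyclooxygenase 1, rose with asbestos from 4.5 ± 1.27 to 23.2 ± 9.25 CPM in young and from 7.26 ± 1.19 to 28.1 ± 2.06 CPM in old Siglec F-high cells (edgeR adjusted p = 1.9e-06 and 2.18e-05), and Siglec F-low cells had 66.6 ± 7.85 and 86.8 ± 13 CPM.

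Of 19 tested genes that store or activate latent TGF-beta, 3 rose and 1 fell in young and 5 rose and 0 fell in old Siglec F-low against Siglec F-high cells; with 22 libraries there were 5 higher and 2 lower in young and 5 higher and 1 lower in old mice. Ltbp3, a latent TGF-beta binding protein, was at 15.7 ± 2.73 against 1.97 ± 0.748 CPM in young and 22.5 ± 7.84 against 2.88 ± 0.879 CPM in old mice (edgeR adjusted p = 1.46e-05 and 2.79e-05). Mmp14, a membrane protease, was at 22 ± 4.3 against 3.61 ± 2.05 CPM and 35.3 ± 9.89 against 3.25 ± 1.84 CPM (edgeR adjusted p = 1.12e-05 and 3.25e-06). Monocyte and interstitial macrophage markers were higher in the same sort, and their part in these differences was not tested.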
